A study of Mus musculus with 309 samples.

Results

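Tumours of the mouse mammary tumour model p53RB-426 taken from trametinib-treated animals were compared with untreated tumours of the same model. All 3 tumours labelled p53RB-426 and trametinib were used (replicates 1 to 3, written T1, T2 and T3 below), together with all 3 labelled p53RB-426 and untreated (U1, U2 and U3). They make up 6 of the 309 tumours of the series, which covers 24 mouse models of breast cancer, and were measured by mRNA sequencing of whole frozen tumours. The other p53RB-426 groups, with 3 tumours each, received erlotinib (an inhibitor of the EGF receptor kinase, tumours E1 to E3), carboplatin with paclitaxel, or antibodies to PD-1 and CTLA-4. All 15 tumours entered the fit. The labels state a median survival of 12 days for the trametinib group and 9 days for the untreated group. They give no dose, schedule, time of collection, alleles, host strain or age, and they do not say whether a model began from a single tumour. P-values therefore measure the spread between tumours of 1 model.

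Trametinib is an allosteric inhibitor of the kinases MEK1 and MEK2. These kinases stand between RAF and ERK in the cascade that carries growth factor signals from RAS to the nucleus. Active ERK switches on immediate early transcription factors such as Egr1 and, with them, its own brakes, among them the phosphatase Dusp6 and the inhibitor Spry4, so that the transcripts of these genes serve as readouts of ERK output. The same cascade is used by tumour cells, endothelial cells, macrophages and fibroblasts, and bulk tumour RNA holds all of them.

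The libraries held between 74298135.0 and 115402488.0 estimated counts in the trametinib group and between 80159317.0 and 97300006.0 in the untreated group, and each detected between 22184 and 23275 genes. Mitochondrial transcripts took between 2.38% and 2.74% of counts under trametinib and between 2.74% and 3.23% without treatment. The mesenchymal marker Vim was abundant, at 3319, 2899 and 2772 CPM (counts per 1000000 of the scaled library) in U1, U2 and U3, and the epithelial keratin Krt8 stood at 648, 543 and 486 CPM there. The epithelial adhesion gene Epcam was at only 2.01, 3.14 and 2.33 CPM in the same tumours. The milk genes Wap and Csn1s1 were among 4 of 9 mammary alveolar markers at 0 in all 6 tumours, and the 9 summed to between 0.686 and 0.784 CPM of the unscaled library without treatment and to between 0.148 and 0.191 CPM with trametinib. Trametinib tumour T1 stood apart: it had the fewest counts of the 6 and by far the most structural RNA without poly(A) tails, with Rn7s1, an RNA of the signal recognition particle, at 0.433, 4.47 and 3.83 CPM in U1, U2 and U3 and at 199, 12.6 and 5.39 CPM in T1, T2 and T3. With T1 as the only trametinib tumour, 502 genes passed the test in place of 1908, with 179 higher and 323 lower, and without it 1967 passed. By the library numbers in the labels, T1 comes directly after U1 to U3, T3 directly before E1 to E3, and T2 apart from both. The labels do not say what the numbers stand for, and their part in the results was not tested.

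Trametinib tumours differed from untreated tumours at 1908 of 17936 tested genes, of which 764 were higher and 1144 lower, at an adjusted p under 0.05 in edgeR's quasi-likelihood test. These calls make up 10.6% of the tested genes, 4.26% in the higher and 6.38% in the lower direction, against which the counts of list members below are to be read, and the median log2 fold change over all tested genes was 0.02. The split of the calls moved with the scaling: with library totals alone 25.1% of 2047 calls were higher, and with limma, run on the authors' normalized values, 27.9% of 1665 were higher, against 40.0% here. Below, values for single tumours are in CPM and in the order U1, U2, U3 (untreated) and T1, T2, T3 (trametinib), changes are log2 fold changes of trametinib against untreated, and a value after ± is a standard error unless SD is written. The largest fall among the genes of the naming rule was that of Mest, an imprinted gene of the alpha/beta hydrolase family on chromosome 6, at 24.8, 21.5 and 20 CPM untreated and 0.664, 1.03 and 1.35 CPM treated (-4.42 ± 0.24, adjusted p = 3.26e-07). Every trametinib tumour lay far below every untreated tumour for Mest. The macrophage genes Fcrls and Cx3cr1 (-3.41 ± 0.25 and -3.0 ± 0.27) and the endothelial genes Sox18 and Cd93 (-2.47 ± 0.23 and -2.39 ± 0.19) followed, together with the phosphodiesterase Pde2a (-2.55), the exchange factor Fgd2 (-2.34), the sodium/proton exchanger Slc9a2 (-2.31) and the adducin Add2 (-2.22). The largest rises beside the structural RNAs were those of the acute-phase gene Saa3 (3.80 ± 0.60), the inducible nitric oxide synthase Nos2 (2.93 ± 0.44), the vasodilator peptide gene Adm (2.80 ± 0.63) and the small leucine-rich proteoglycan Ogn (2.49 ± 0.41). Mgarp (2.33), a nuclear gene that encodes a mitochondrial protein, the metallothionein Mt2 (2.29), angiotensinogen Agt (2.06) and the neuronal enolase Eno2 (2.03) also rose. Leaving out 1 tumour ended the calls of Rn7s1 without U1, U2, U3 or T1 (adjusted p from 0.112 to 0.241), Rn7sk without U1, U2, U3 or T1 (adjusted p from 0.133 to 0.179), Adm without U1 or U2 (adjusted p from 0.0645 to 0.0722), Agt without U1 or U2 (adjusted p from 0.0511 to 0.0529), Eno2 without U1, U2, U3, T2 or T3 (adjusted p from 0.0839 to 0.159) and Pde2a without T3 (adjusted p = 0.0566).

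**Figure D1:**
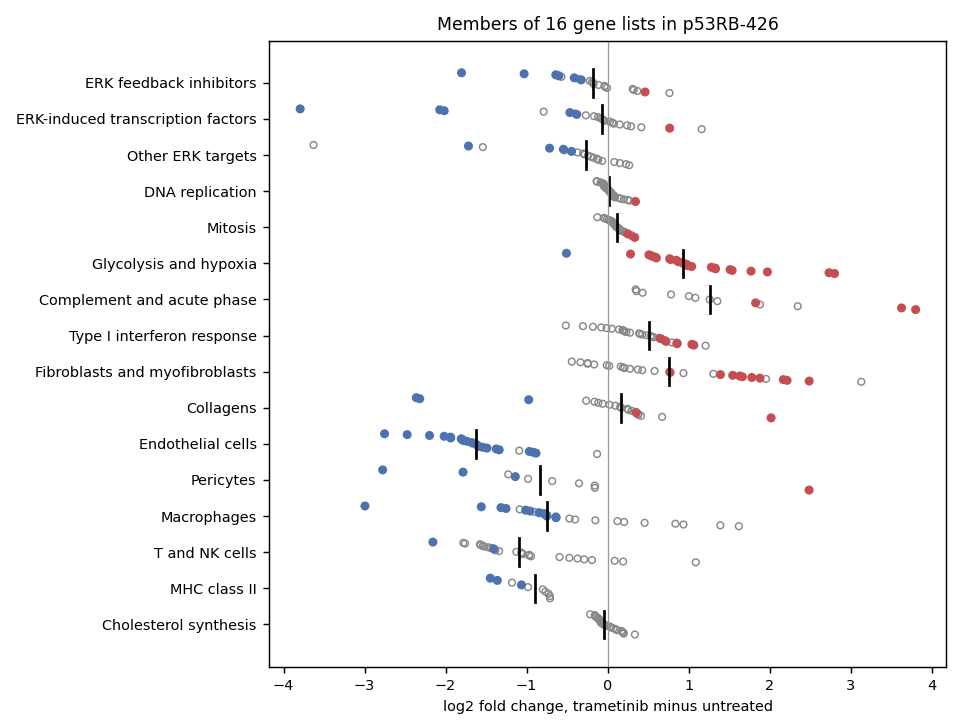
Each point is 1 member of 16 gene lists and the horizontal axis is its log2 fold change, trametinib minus untreated, in p53RB-426. Filled red and blue points passed the test as higher and lower, open points did not, and the bar is the list's median, which lies at -1.63 for the endothelial list and at 0.94 for the glycolysis and hypoxia list.

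Of the cascade itself, transcripts of the drug's targets did not pass the test: Map2k1, which encodes MEK1, stood at 51.4, 50.6 and 45.9 CPM untreated and 57.4, 63.8 and 66.1 CPM treated (0.34 ± 0.11, adjusted p = 0.0535), and Map2k2, which encodes MEK2, at 115, 92.8 and 96.7 CPM untreated and 88.7, 106 and 125 CPM treated (0.07 ± 0.11, adjusted p = 0.78). The groups did not overlap for Map2k1 and overlapped for Map2k2. Among 24 kinases and adaptors of the cascade, 1 was higher and 2 were lower, a share of calls near the 10.6% of all genes. Rasgrp1, an activator of RAS best known in lymphocytes, fell from 4.13, 4.6 and 3.85 CPM to 1.75, 1.11 and 1.3 CPM (-1.60 ± 0.24, adjusted p = 0.000653), and the scaffold Ksr2 fell from a lower level (-2.13 ± 0.46, adjusted p = 0.00791).

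Of 21 tested ERK feedback inhibitors 6 fell and 1 rose, a share of calls above the 10.6% of all genes, with a list median of -0.18. Dusp6, the cytoplasmic ERK phosphatase, stood at 182, 174 and 157 CPM untreated and 107, 124 and 108 CPM treated (-0.60 ± 0.09, adjusted p = 0.000653). All trametinib tumours lay below all untreated tumours. Dusp5, a nuclear ERK phosphatase, was at 23.6, 22.1 and 27.6 CPM untreated and 11, 11.8 and 13 CPM treated (-1.03 ± 0.15, adjusted p = 0.000579), and Spry4, an inhibitor of receptor signalling upstream of RAF, at 53.1, 51.7 and 53.7 CPM untreated and 29, 33.3 and 39.4 CPM treated (-0.64 ± 0.10, adjusted p = 0.00112). Neither gene's groups overlapped. Dusp2, a phosphatase of immune cells, showed the steepest fall of the list (-1.80 ± 0.43), and Dusp9 and Dusp7 showed the shallowest (-0.41 ± 0.10 and -0.33 ± 0.09). Spry1 went the other way, at 10.2, 9.33 and 11.1 CPM untreated and 14.6, 12.6 and 15 CPM treated (0.46 ± 0.14, adjusted p = 0.0441). Dusp4 (-0.57 ± 0.25, adjusted p = 0.188), Spred3 (-0.36 ± 0.12, adjusted p = 0.0732), Dusp1 (0.76 ± 0.30, adjusted p = 0.13) and Spry2 (-0.19) did not pass. Some calls depended on single tumours: Dusp2 without U3, T1 or T3 (adjusted p from 0.0584 to 0.0735), Dusp7 without U1, U2, U3, T2 or T3 (adjusted p from 0.0528 to 0.112), Dusp9 without U1 or T2 (adjusted p from 0.0753 to 0.0786) and Spry1 without U1, U2, U3, T1 or T3 (adjusted p from 0.0595 to 0.162).

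The promoters of Dusp5, Dusp6 and Fosl2 are shown as examples from the lists of ERK feedback inhibitors and ERK-induced transcription factors. Dusp5 and Dusp6 fell with trametinib, whereas Fosl2 rose. These genes are the called members of the lists with the lowest p among those whose promoter could be shown. Some called members that fell had a lower p than Fosl2 and are left out by this limit. Each line runs 5′ to 3′ on the gene's strand from 250 bases before to 50 bases after the RefSeq start (build GRCm38.p6), and capitals mark matches to a CArG box (the site of serum response factor), to CGTCA or to CCGGAA, on either strand.
Dusp5, chr19:53528895-53529194, plus strand: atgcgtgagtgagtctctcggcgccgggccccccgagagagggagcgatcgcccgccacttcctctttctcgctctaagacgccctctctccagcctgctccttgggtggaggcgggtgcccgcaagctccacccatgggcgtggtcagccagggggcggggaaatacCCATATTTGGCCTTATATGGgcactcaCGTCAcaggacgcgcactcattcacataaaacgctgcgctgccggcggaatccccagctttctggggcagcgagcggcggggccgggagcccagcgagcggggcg
Dusp6, chr10:99262981-99263280, plus strand: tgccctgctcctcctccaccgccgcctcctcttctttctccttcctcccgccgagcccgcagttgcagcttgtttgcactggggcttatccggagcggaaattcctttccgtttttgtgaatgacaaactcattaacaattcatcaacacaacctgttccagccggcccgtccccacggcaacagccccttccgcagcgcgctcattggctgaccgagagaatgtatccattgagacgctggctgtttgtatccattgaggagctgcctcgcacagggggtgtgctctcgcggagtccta
Fosl2, chr5:32136222-32136521, plus strand: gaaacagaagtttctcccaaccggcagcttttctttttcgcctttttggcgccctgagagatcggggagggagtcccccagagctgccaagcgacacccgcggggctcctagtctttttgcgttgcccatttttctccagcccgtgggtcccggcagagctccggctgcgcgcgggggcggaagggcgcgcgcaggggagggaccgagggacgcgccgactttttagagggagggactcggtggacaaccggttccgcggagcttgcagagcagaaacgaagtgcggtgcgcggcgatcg
The Dusp5 window held 2 adjoining CArG boxes, whose first bases lie 82 and 72 bases before the start, and 1 CGTCA, 55 bases before it. Neither of the other windows held a match. Of 32851 promoters in the table, 1.63% held a CArG box, 20.81% CGTCA and 14.9% CCGGAA, each on either strand. Of the 18 feedback inhibitors with a promoter, 1 held a CArG box (5.6%, against 1.8% of 27025 genes). In the same 18, 2 held CCGGAA (11.1%, against 16.7%) and 7 held CGTCA (38.9%, against 23.0%).

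Among 23 tested ERK-induced transcription factors, 5 fell and 1 rose, against 6.38% and 4.26% of all genes, and the zinc finger factors of the Egr family fell furthest. Egr3 stood at 8.44, 9.82 and 16.5 CPM untreated and 0.889, 0.789 and 0.824 CPM treated (-3.80 ± 0.46, adjusted p = 0.000208), Egr2 at 7.96, 8.51 and 13 CPM untreated and 2.41, 2.31 and 2.27 CPM treated (-2.07 ± 0.40, adjusted p = 0.00476) and Egr1 at 67, 68.8 and 85.1 CPM untreated and 17.6, 18.7 and 18.3 CPM treated (-2.02 ± 0.46, adjusted p = 0.0154). The 3 trametinib tumours lay close together for each gene and well below the lowest untreated tumour. The early response gene Ier2 (-0.47 ± 0.13, adjusted p = 0.0348) and the ETS factor Etv4 (-0.38 ± 0.10, adjusted p = 0.0275) fell by less. Etv4 went from 183, 178 and 195 CPM to 132, 137 and 157 CPM, whereas its relative Etv5 stood at 67.9, 76.4 and 69.7 CPM untreated and 54.7, 57.1 and 65.7 CPM treated (-0.27 ± 0.09, adjusted p = 0.0597) and did not pass. Fosl2, a partner of Jun in the AP-1 factor, rose, with 68, 70.3 and 77.5 CPM untreated and 108, 127 and 132 CPM treated (0.77 ± 0.15, adjusted p = 0.00409). Neither Fos, at 12.2, 8.62 and 12.8 CPM untreated and 10.3, 12.8 and 11.8 CPM treated (0.06 ± 0.50, adjusted p = 0.965), nor Myc, at 831, 815 and 1117 CPM untreated and 777, 835 and 1053 CPM treated (-0.05 ± 0.19, adjusted p = 0.911), passed, and for both genes the tumours of the groups overlapped. The median of this list was -0.07 and lost its sign without T1. The number that fell was 2 without T2 or without U3, and 3 without U1 or without T1. Calls that single tumours ended were those of Egr1 without U3, T2 or T3 (adjusted p from 0.0526 to 0.0581), Ier2 without U1, U3, T1 or T2 (adjusted p from 0.0748 to 0.122) and Etv4 without U1, U2, U3, T1 or T2 (adjusted p from 0.0527 to 0.0995).

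**Figure D2:**
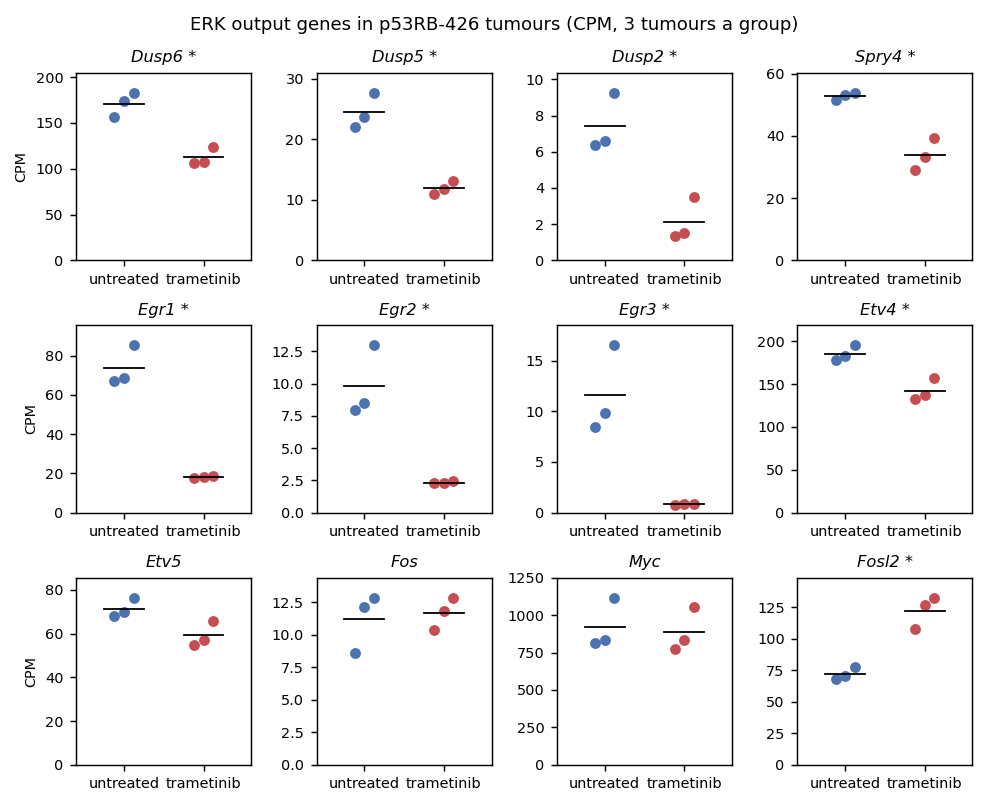
Each panel shows the CPM of 1 ERK output gene in the 3 untreated (blue) and 3 trametinib (red) tumours, with the group mean as a line, and a star marks genes with an adjusted p under 0.05. The trametinib points lie below all untreated points for Dusp6, Dusp5, Dusp2, Spry4, Egr1, Egr2, Egr3, Etv4 and Etv5, above them for Fosl2, and among them for Fos and Myc.

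A list of 20 other ERK targets was not confined to genes that ERK induces, and also holds Pdk4, Bcl2l11, Bmf and Sesn1. Of its members 4 fell and none rose, with a median of -0.26. These were Phlda1 (-0.55 ± 0.14, adjusted p = 0.0235), the protease inhibitor Tfpi2 (-1.72 ± 0.37, adjusted p = 0.00774), the EGF receptor ligand Hbegf (-0.72 ± 0.19, adjusted p = 0.0295) and the urokinase receptor Plaur (-0.45 ± 0.13, adjusted p = 0.041). Hbegf stood at 56.1, 54.3 and 60.7 CPM untreated and 30.5, 30.1 and 43.5 CPM treated, with no overlap. Cyclin D1, Ccnd1, the classical link from ERK to the cell cycle, was at 661, 656 and 607 CPM untreated and 609, 460.1 and 557 CPM treated (-0.24 ± 0.13, adjusted p = 0.265) and did not pass. Vgf (-3.63 ± 1.08, adjusted p = 0.0546) did not pass either. Leaving out 1 tumour brought the number that fell to between 1 and 3, and Phlda1, Hbegf and Plaur lost their calls: Phlda1 without U1, U2, U3, T2 or T3 (adjusted p from 0.0587 to 0.1), Hbegf without U1, U2, U3, T1 or T2 (adjusted p from 0.0624 to 0.118) and Plaur without U1, U3, T1 or T2 (adjusted p from 0.0767 to 0.166).

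Receptor tyrosine kinases and their ligands stand upstream of the cascade. Among 27 tested receptors, 1 was higher, near the 4.26% of all genes, and 4 were lower, against 6.38% of all genes. The fibroblast growth factor receptor Fgfr1 rose from 292, 280.2 and 296 CPM to 362, 363 and 391 CPM (0.36 ± 0.08, adjusted p = 0.00956). The receptors that fell were Csf1r, the macrophage growth factor receptor, Kit (-1.07 ± 0.24, adjusted p = 0.00973), which marks mast cells, Erbb3 (-0.99 ± 0.25, adjusted p = 0.0188) and Mertk (-0.38 ± 0.09, adjusted p = 0.0138), which phagocytes use. Egfr itself stood at 11.8, 13.6 and 19 CPM untreated and 19.7, 13.1 and 10.4 CPM treated (-0.04 ± 0.27, adjusted p = 0.95), with overlapping groups. Among 26 ligands, 1 was higher and 3 were lower. Pdgfc rose, with 19.4, 19.7 and 17.7 CPM untreated and 36.2, 35.2 and 34 CPM treated (0.89 ± 0.14, adjusted p = 0.000933), and those that fell included Pdgfb (-0.96 ± 0.22, adjusted p = 0.0132), a ligand that endothelial cells make, and Btc (-1.08 ± 0.28, adjusted p = 0.0213). Single tumours ended the calls of Erbb3 without U1, U2, T2 or T3 (adjusted p from 0.0506 to 0.0906), Mertk without U2, U3 or T2 (adjusted p from 0.0543 to 0.0757), Pdgfb without U3 or T3 (adjusted p from 0.0578 to 0.0613) and Btc without U1, U3, T1, T2 or T3 (adjusted p from 0.0538 to 0.0888).

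Proliferation genes moved little. Of 32 DNA replication genes, 1 was higher (Rfc4, 0.34 ± 0.09, adjusted p = 0.0218) and none was lower, and of 30 mitosis genes, 2 were higher (Ect2, 0.33 ± 0.08, adjusted p = 0.0108, and Hmmr, 0.25 ± 0.07, adjusted p = 0.0445) and none was lower. The list medians were 0.02 and 0.12. Mki67, the Ki-67 antigen, stood at 327, 363 and 292 CPM untreated and 432, 291 and 343 CPM treated (0.12 ± 0.21, adjusted p = 0.795), with overlapping groups. Top2a, the S and G2 phase topoisomerase, was at 0.21 ± 0.09 (adjusted p = 0.163). Of 21 G1 cyclins, CDK inhibitors and partners, Cdkn1b, which encodes the CDK inhibitor p27, was higher, with 54.5, 63.8 and 65.1 CPM untreated and 78.4, 87.5 and 76.1 CPM treated (0.40 ± 0.10, adjusted p = 0.014). Rb1, E2f2 and E2f8 were lower, and Rb1, which encodes the retinoblastoma protein, stood at 9.74, 10.4 and 9.42 CPM untreated and 6.52, 7.65 and 6.67 CPM treated (-0.50 ± 0.12, adjusted p = 0.0143). Trp53, which encodes p53, fell more, with 33, 30.2 and 32.8 CPM untreated and 14.9, 12.5 and 15.8 CPM treated (-1.15 ± 0.12, adjusted p = 3.68e-05), and its groups lay far apart. In the other arms, which share the untreated tumours, Trp53 stood at -0.74 with erlotinib, -0.43 with chemotherapy and -0.90 with antibodies. Cdkn1a, the p53 target that encodes p21, stood at 54.4, 50 and 70.1 CPM untreated and 47.1, 66.3 and 89 CPM treated (0.22 ± 0.20, adjusted p = 0.586), and 2 of 20 p53 targets passed, Fas (0.94) and Sulf2 (0.71), both higher, a share of calls near the 10.6% of all genes. In the Bcl2 family of 12 genes, 3 were lower: Bcl2l1, which encodes the survival factor Bcl-xL (-0.38 ± 0.09, adjusted p = 0.0145), and Bcl2a1b and Bcl2a1d, near-identical copies between which Salmon's split of reads is uncertain. Calls of this paragraph that single tumours ended were those of Rfc4 without U1, U2, U3, T2 or T3 (adjusted p from 0.0653 to 0.0843), Ect2 without U3 (adjusted p = 0.0596), Hmmr without U1, U2, U3, T1, T2 or T3 (adjusted p from 0.059 to 0.161), Cdkn1b without U1 or T2 (adjusted p from 0.0713 to 0.0736), Rb1 without U2 or T3 (adjusted p from 0.054 to 0.0631), E2f2 without U2, U3, T1 or T3 (adjusted p from 0.0585 to 0.148), E2f8 without U1, U2, T2 or T3 (adjusted p from 0.0846 to 0.13), Fas without U1, U3, T1 or T2 (adjusted p from 0.0701 to 0.11), Sulf2 without U1 (adjusted p = 0.0521) and Bcl2l1 without U3 (adjusted p = 0.0791).

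Glycolysis and hypoxia genes rose together. Low oxygen stabilises the HIF factors, which bind ACGTG or GCGTG sites and induce glucose uptake, glycolysis and pH control. Of 27 tested members, 24 were higher and 1 was lower, against 4.26% and 6.38% of all genes, with a median of 0.94. Adm stood at 6.43, 8.16 and 10.7 CPM untreated and 43.2, 57.6 and 75 CPM treated (2.80 ± 0.63, adjusted p = 0.0156), and Car9, a carbonic anhydrase that takes part in pH control, at 1.7, 1.75 and 1.32 CPM untreated and 6.03, 11.3 and 14.4 CPM treated (2.73 ± 0.50, adjusted p = 0.00353). For both, each trametinib tumour was several times above the highest untreated tumour. The glucose transporter Slc2a1 was at 191, 171 and 254 CPM untreated and 333, 529 and 679 CPM treated (1.32 ± 0.32, adjusted p = 0.0207) and the mitophagy gene Bnip3 at 46.3, 50.2 and 53.2 CPM untreated and 153, 227 and 208 CPM treated (1.97 ± 0.46, adjusted p = 0.0188). In both cases T1 was the lowest of the 3 treated tumours and still above the untreated. Glycolytic enzymes rose by less and with a narrower error: Tpi1 by 0.99 ± 0.16, Ldha, which makes lactate, by 0.85 ± 0.15, and Pgk1 by 1.04 ± 0.21. The oxygen sensor Egln3 (1.33 ± 0.24), the collagen hydroxylase P4ha1 (0.97 ± 0.17) and the glycolysis regulator Pfkfb3 (1.51 ± 0.25) were higher too. Pfkfb4 was the only faller, with 8.08, 7.72 and 7.81 CPM untreated and 5.63, 5.83 and 5.13 CPM treated (-0.51 ± 0.13, adjusted p = 0.02). Vegfa, the vessel growth factor and a HIF target, stood at 108, 111 and 177 CPM untreated and 164, 240.0 and 314 CPM treated (0.86 ± 0.32, adjusted p = 0.119) and did not pass, and neither did Pfkp (0.92 ± 0.31, adjusted p = 0.0793).

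The number of higher members fell to 14 of 27 without U2 or without T3, and to 15 without U1. With T1 as the only trametinib tumour none of the 27 passed the test and the median was 0.66. Single tumours ended the calls of Adm without U1 or U2 (adjusted p from 0.0645 to 0.0722), Slc2a1 without U1, U2, T2 or T3 (adjusted p from 0.0607 to 0.0878), Bnip3 without U1, U2, U3, T2 or T3 (adjusted p from 0.054 to 0.0768) and Pfkfb4 without U1, U2, U3 or T3 (adjusted p from 0.054 to 0.0768). Car9, Tpi1, Ldha, Pgk1, Egln3, P4ha1 and Pfkfb3 passed whichever tumour was left out.

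The promoters of the 3 members with the largest rises are shown because they let the HIF site be seen beside the values, a choice made after the values were known. Layout and build are as above, and capitals mark ACGTG or GCGTG on either strand, so that CACGT and CACGC are matches on the opposite strand.
Adm, chr7:110627407-110627706, plus strand: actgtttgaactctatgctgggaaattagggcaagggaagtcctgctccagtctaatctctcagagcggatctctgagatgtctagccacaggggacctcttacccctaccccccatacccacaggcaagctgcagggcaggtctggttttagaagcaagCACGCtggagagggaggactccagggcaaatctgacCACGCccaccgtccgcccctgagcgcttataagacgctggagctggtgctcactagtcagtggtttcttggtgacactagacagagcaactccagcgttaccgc
Car9, chr4:43506776-43507075, plus strand: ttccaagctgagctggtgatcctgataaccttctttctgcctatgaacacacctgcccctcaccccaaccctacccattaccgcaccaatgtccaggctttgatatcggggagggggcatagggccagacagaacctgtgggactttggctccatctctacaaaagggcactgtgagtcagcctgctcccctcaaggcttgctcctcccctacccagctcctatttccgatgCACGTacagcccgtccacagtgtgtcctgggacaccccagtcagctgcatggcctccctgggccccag
Bnip3, chr7:138909457-138909756, minus strand: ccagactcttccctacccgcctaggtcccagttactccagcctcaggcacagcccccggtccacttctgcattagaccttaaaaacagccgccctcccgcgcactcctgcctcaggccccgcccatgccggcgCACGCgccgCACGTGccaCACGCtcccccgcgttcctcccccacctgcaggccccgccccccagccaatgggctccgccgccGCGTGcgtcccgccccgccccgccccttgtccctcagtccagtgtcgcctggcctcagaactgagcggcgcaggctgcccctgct
Adm held 2 GCGTG matches, beginning 90 and 54 bases before the start, and Car9 held 1 ACGTG, beginning 18 bases before it. Bnip3 held 5 matches, 2 of which overlap as the palindrome CACGTG at 108 and 107 bases before the start. In the same windows, 24 of the 26 list members with a promoter held ACGTG or GCGTG (92.3%), against 46.7% of 27025 genes, and 17 held ACGTG (65.4%, against 21.8%). The list was made of glycolysis and hypoxia genes, so its share of such sites does not depend on the response to trametinib. A match is a string of letters in these windows and not a measured binding site. The part of HIF in the rise was not tested.

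Endothelial genes fell together. Of 25 tested members, 20 were lower and none was higher, with a median of -1.63, against 6.38% lower over all genes. The junction gene Cdh5, which encodes VE-cadherin, stood at 76, 76.2 and 98.7 CPM untreated and 27.9, 20.8 and 13.4 CPM treated (-2.02 ± 0.22, adjusted p = 7.85e-05), and Pecam1, a cell contact receptor, at 50.5, 51.4 and 58.7 CPM untreated and 25.6, 19.2 and 12.5 CPM treated (-1.49 ± 0.21, adjusted p = 0.000509). Kdr, the main VEGF receptor, was at 25.6, 26.7 and 28.4 CPM untreated and 13.6, 8.69 and 5.53 CPM treated (-1.54 ± 0.24, adjusted p = 0.00102). Trametinib tumour T3 was the lowest and T1 the highest of the treated tumours for these 3 genes, and all treated tumours lay below the untreated. The steepest falls were in the tight junction gene Cldn5 (-2.75 ± 0.44, adjusted p = 0.00145), the transcription factor Sox18 (-2.47 ± 0.23, adjusted p = 1.18e-05) and the Notch ligand of tip cells Dll4 (-2.20 ± 0.24, adjusted p = 6.12e-05). Mmrn2, an extracellular partner of endothelial CD93, had the smallest p of these genes, with 11.6, 11.5 and 13.9 CPM untreated and 3.88, 3.31 and 2.48 CPM treated (-1.94 ± 0.17, adjusted p = 9.2e-06). Nos3, the endothelial nitric oxide synthase, fell by less (-1.74 ± 0.18). The 5 that did not pass were Apln (-0.13 ± 0.24, adjusted p = 0.81), Vwf (-1.63 ± 0.52, adjusted p = 0.0664), Aplnr (-1.68), Esm1 (-1.61) and Angpt2 (-1.09). Leaving out any 1 tumour kept the number that fell at 19 or 20, and with T1 alone it was 16. The summed CPM of the endothelial list (here and for the marker sums below, per 1000000 of the unscaled library) was between 514 and 669 in untreated and between 180 and 260 in trametinib tumours. In bulk RNA, fewer cells of a type and less RNA per cell cannot be told apart, here and for the cell types below.

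Pericytes are the mural cells of small vessels. Of 10 pericyte genes 9 lay below 0, with a median of -0.83, and 3 passed as lower and 1 as higher. Mcam, which endothelial cells also express, fell, with 51.3, 47.8 and 58.1 CPM untreated and 16.8, 16.9 and 11.9 CPM treated (-1.79 ± 0.15, adjusted p = 9.2e-06), and the Notch target Heyl fell as well (-2.78 ± 0.31, adjusted p = 5.72e-05). Ndufa4l2, which is also induced by hypoxia, rose, with 10.7, 9.69 and 11.1 CPM untreated and 48.1, 50.4 and 78.3 CPM treated (2.49 ± 0.51, adjusted p = 0.00918). Rgs5, a defining pericyte gene, stood at -0.98 ± 0.41, adjusted p = 0.165. Summed pericyte markers were between 335 and 360 CPM untreated and between 245 and 317 CPM with trametinib.

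**Figure D3:**
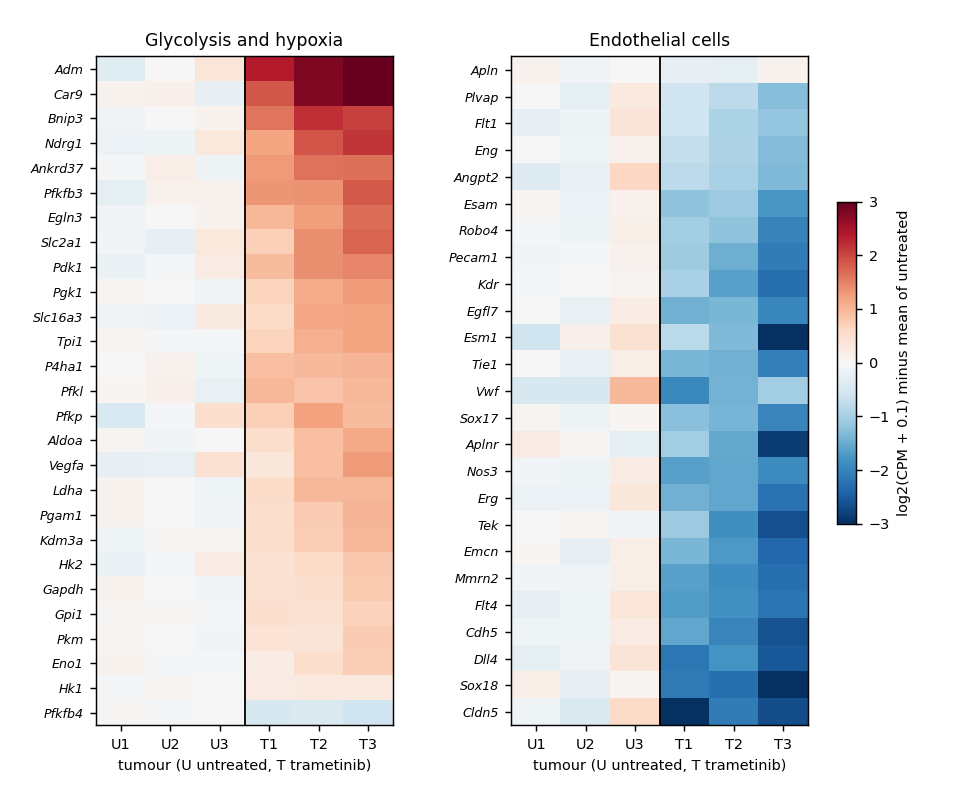
Colour gives log2(CPM + 0.1) minus the mean of the untreated tumours for each member (rows) of the glycolysis and hypoxia list and of the endothelial list in the 6 tumours (columns), with the vertical line between untreated and trametinib. Trametinib columns are red for all hypoxia members but Pfkfb4 and blue for the endothelial members but Apln, with T1 paler and T3 stronger for most hypoxia genes.

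Macrophage genes fell, but not all alike. Of 25 tested members 13 were lower and none was higher, with a median of -0.75. Cx3cr1, the fractalkine receptor, stood at 106, 109 and 91.3 CPM untreated and 17.6, 9.36 and 11.6 CPM treated (adjusted p = 3.13e-05). Csf1r stood at 181, 178 and 155 CPM untreated and 70.6, 62.2 and 73.4 CPM treated (-1.32 ± 0.12, adjusted p = 1.18e-05) and the integrin Itgam at 109.7, 105 and 100.2 CPM untreated and 44.3, 40.5 and 47.2 CPM treated (-1.25 ± 0.20, adjusted p = 0.00156). No treated tumour overlapped the untreated for these genes. The Fc receptor Fcgr1 (-1.56 ± 0.23), the pan-macrophage marker Adgre1 (-0.75 ± 0.16) and the complement gene C1qa (-0.77 ± 0.16) were lower too. In contrast, Cd68, a lysosomal marker of all macrophages (-0.15 ± 0.18, adjusted p = 0.673), Trem2 (-0.40 ± 0.16, adjusted p = 0.131), the arginase Arg1 (0.84 ± 0.73, adjusted p = 0.55) and Lyve1 (1.62 ± 0.88, adjusted p = 0.295) did not pass. Fcrls, a gene of resident macrophages and microglia, went from 91.5, 99.2 and 82.6 CPM to 9.49, 7.61 and 8.68 CPM (-3.41 ± 0.25, adjusted p = 8.11e-06), and Itgax, which encodes CD11c, from 19.3, 19.3 and 20.8 CPM to 5.7, 3.55 and 3.64 CPM (-2.21 ± 0.26, adjusted p = 0.000138). Summed macrophage markers were between 5065 and 5139 CPM untreated and between 2713 and 2830 CPM with trametinib. The number that fell was 10 to 12 in the leave-out fits and 2 with T1 alone.

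Other immune lists had smaller shares of calls than the macrophage list, but several lay above those of all genes (4.26% higher and 6.38% lower). Of 15 dendritic cell genes 3 were lower, of 8 tested B and plasma cell genes 2 were lower, and none of either list was higher. Of 28 T and NK cell genes 2 were lower, near the share of all genes, and none was higher, with a median of -1.10. Cd8a stood at 3.2, 1.79 and 0.5 CPM untreated and 0.664, 0.53 and 0.439 CPM treated (-1.76 ± 0.68, adjusted p = 0.124), with U3 inside the range of the treated tumours. Trbc2, the T cell receptor constant region, was lower at 3.4, 2.4 and 1.49 CPM untreated and 0.96, 0.941 and 0.851 CPM treated (-1.41 ± 0.35, adjusted p = 0.0167), and Cd8b1 passed at a level near the filter (-2.16 ± 0.65, adjusted p = 0.0468). The summed T and NK markers were between 45.1 and 64.6 CPM untreated and between 29.4 and 31.8 CPM treated. In the class II antigen presentation list, H2-DMa (-1.36 ± 0.29, adjusted p = 0.00835), H2-DMb2 (-1.45 ± 0.30, adjusted p = 0.00659) and H2-DMb1 were lower among 10 (none higher), and U3 lay below U1 and U2. None of 20 class I genes passed. Of 32 type I interferon response genes 6 were higher and none was lower, with a median of 0.51, among them the antiviral genes Ifit1, at 4.46, 4.88 and 2.84 CPM untreated and 8.22, 7.41 and 6.44 CPM treated (0.86 ± 0.20, adjusted p = 0.0115), Rsad2 (1.04 ± 0.26, adjusted p = 0.0186) and Mx2 (1.06 ± 0.29, adjusted p = 0.0275) and the RNA sensor Ddx58 (0.65 ± 0.16, adjusted p = 0.0159). That number was 1 without U3 or without T2, 2 without U1 or without T3, and 4 without U2. Among 21 checkpoint genes Tnfrsf9, which encodes 4-1BB, rose, with 38.9, 36.4 and 29.1 CPM untreated and 75.7, 89.5 and 118 CPM treated (1.44 ± 0.28, adjusted p = 0.00543). The inhibitory receptor Vsir, which myeloid cells also carry, fell, with 75.3, 79.7 and 77.8 CPM untreated and 43.9, 38.5 and 35.5 CPM treated (-0.98 ± 0.09, adjusted p = 1.83e-05), as did Tigit, Tnfrsf4 and Cd86. Cd274, which encodes PD-L1, stood at 7.45, 6.71 and 6.09 CPM untreated and 7.76, 9.59 and 11.2 CPM treated (0.49 ± 0.32, adjusted p = 0.377). Single tumours ended the calls of Trbc2 without U1, T2 or T3 (adjusted p from 0.0563 to 0.0932), Cd8b1 without U1, U2, T1, T2 or T3 (adjusted p from 0.0966 to 0.174), H2-DMb1 without U1, U2, T1, T2 or T3 (adjusted p from 0.0554 to 0.15), Rsad2 without U1, U3, T2 or T3 (adjusted p from 0.06 to 0.0866), Mx2 without U1, U2, U3, T2 or T3 (adjusted p from 0.0565 to 0.133), Ddx58 without U3 or T2 (adjusted p from 0.0559 to 0.0741), Tigit without U3 or T3 (adjusted p from 0.0832 to 0.0931), Tnfrsf4 without U1, U2, U3, T1 or T2 (adjusted p from 0.0918 to 0.164) and Cd86 without U1, U2, U3, T1, T2 or T3 (adjusted p from 0.0579 to 0.0939).

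Acute-phase genes held some of the largest rises. Saa3 stood at 8.17, 6.04 and 3.38 CPM untreated and 137, 70.2 and 38.5 CPM treated (3.80 ± 0.60, adjusted p = 0.00197), the iron-binding lipocalin Lcn2 at 0.544, 0.224 and 0.524 CPM untreated and 7.6, 3.45 and 4.97 CPM treated (3.63 ± 0.63, adjusted p = 0.00238) and haptoglobin, Hp, at 1.83 ± 0.40 (adjusted p = 0.0101, 0.0507 without U3). Tumour T1 was the highest of the treated tumours for Saa3 and all 3 exceeded the untreated. These were the 3 called of 13 complement and acute-phase genes. Of 14 tested neutrophil genes and chemokines, 2 were higher, Csf3 and Cxcl1, and none was lower, with a median of 0.24 and 5 members below 0. The call of Cxcl1 (1.44 ± 0.37, adjusted p = 0.0263) was lost without U1, U2, T2 or T3 (adjusted p from 0.0698 to 0.105). Csf3, which encodes the neutrophil growth factor G-CSF, rose from a low level, with 0.101, 0.128 and 0.159 CPM untreated and 0.96, 1.06 and 1.78 CPM treated (3.29 ± 0.68, adjusted p = 0.0063). Its receptor Csf3r, which neutrophils carry, stood at 9.26, 7.5 and 6.73 CPM untreated and 6, 5.84 and 4.6 CPM treated (-0.52 ± 0.19, adjusted p = 0.0963) and did not pass, with every treated tumour below the untreated. The neutrophil genes S100a8 and S100a9 lay the other way at low levels, here in CPM of the unscaled library. S100a8 was at 0.719, 0.566 and 0.599 CPM untreated and 1.49, 2.78 and 1.39 CPM treated. S100a9 was at 0.935, 0.381 and 0.511 CPM untreated and 2.52, 3.62 and 1.66 CPM treated. Neutrophil markers summed to between 137 and 147 CPM untreated and between 148 and 160 CPM with trametinib.

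Contractile and matrix genes of fibroblasts rose. Of 29 tested fibroblast and myofibroblast genes 10 were higher and none was lower, with a median of 0.76. The smooth muscle actin Acta2, a marker of myofibroblasts, was at 186, 188 and 106 CPM untreated and 712, 479 and 574 CPM treated (1.88 ± 0.27, adjusted p = 0.000746). The myosin light chain Myl9 was at 43.4, 45.1 and 26.8 CPM untreated and 242, 159 and 118 CPM treated (2.17 ± 0.35, adjusted p = 0.00196) and calponin, Cnn1, at 1.71, 1.98 and 1.57 CPM untreated and 10.3, 8.71 and 5.47 CPM treated (2.21 ± 0.25, adjusted p = 6.51e-05). For all 3 genes T1 was the highest tumour and no treated tumour overlapped the untreated. The actin-binding Tagln (1.39 ± 0.21), the Wnt modulator Sfrp2 (1.66 ± 0.20), Ogn (2.49 ± 0.41) and Dpt (1.63 ± 0.27), a dermatopontin of loose matrix, were also higher. Members of the list that did not pass included Pdgfra (0.19 ± 0.14, adjusted p = 0.455), Dcn (0.58 ± 0.21, adjusted p = 0.102), Postn (0.43 ± 0.24, adjusted p = 0.314) and Fap (-0.25 ± 0.32, adjusted p = 0.705). Acta2, Myl9, Cnn1 and Tagln are also expressed by pericytes and smooth muscle, and their source was not tested. Summed fibroblast markers were between 5902 and 7011 CPM untreated and between 7963 and 8895 CPM treated, and skeletal muscle markers were between 151 and 249 CPM and between 61.1 and 575 CPM.

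Among 21 collagens, the fibrillar gene Col11a1 (2.06, 2.73 and 4.92 CPM untreated and 15.1, 9.96 and 14.2 CPM treated, 2.02 ± 0.34, adjusted p = 0.00147) and Col16a1 were higher, and Col15a1, a basement membrane collagen of vessels (68.1, 85.8 and 85.5 CPM untreated and 27.3, 14.5 and 6.42 CPM treated, -2.32 ± 0.46, adjusted p = 0.0076), Col10a1 and Col5a3 were lower, with calls ended by single tumours for Col16a1 without U3 (adjusted p = 0.0659) and Col5a3 without U1, U2, U3, T2 or T3 (adjusted p from 0.0783 to 0.12). The abundant fibrillar genes Col1a1 (0.02 ± 0.52, adjusted p = 0.987) and Col3a1 (0.41 ± 0.15, adjusted p = 0.0991) did not pass. In the TGF-beta list of 20, Tgfb1 fell, with 112, 102 and 131 CPM untreated and 55.5, 70.6 and 67.9 CPM treated (-0.83 ± 0.11, adjusted p = 0.000333), as did its receptor Tgfbr1 (-0.95 ± 0.14, adjusted p = 0.000549), while the co-receptor Tgfbr3 rose (1.03 ± 0.17, adjusted p = 0.00132). Matrix proteases had 4 higher and 2 lower of 16, with Mmp3 (1.57 ± 0.33, adjusted p = 0.00875) and Mmp2 (0.41 ± 0.09, adjusted p = 0.00682) higher and the inhibitor Timp1 lower (-0.60 ± 0.13, adjusted p = 0.00936).

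Epithelial and mesenchymal genes moved in a few members, and which cells they came from was not tested. Of 20 tested epithelial genes 3 were lower and 1 was higher. Krt18, a simple epithelial keratin, fell, with 616, 543 and 503 CPM untreated and 263, 256 and 220.4 CPM treated (-1.17 ± 0.12, adjusted p = 2.62e-05). Epcam stood at -0.65 ± 0.30, adjusted p = 0.203 and did not pass. Summed epithelial markers were between 1072 and 1359 CPM untreated and between 752 and 806 CPM with trametinib. Of the 20 tested genes, 10 lay below 0 and 10 above. The oestrogen receptor gene Esr1, which fibroblasts also express, rose, with 35.2, 45.7 and 29.6 CPM untreated and 111, 78.6 and 90.5 CPM treated (1.34 ± 0.30, adjusted p = 0.013). Of 16 mesenchymal genes 3 were higher, among them Vim, with 3319, 2899 and 2772 CPM untreated and 3966, 4324 and 4752 CPM treated (0.54 ± 0.12, adjusted p = 0.00871), and Zeb1 (0.45 ± 0.10, adjusted p = 0.0113), and 2 were lower. None of 24 cholesterol synthesis genes and none of 18 ribosome genes passed in edgeR. Single tumours ended the calls of Esr1 without U1 or U3 (adjusted p from 0.0554 to 0.0621) and Zeb1 without U1 or T3 (adjusted p from 0.0575 to 0.0599).

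The comparison with erlotinib sets trametinib against another kinase inhibitor in the same model without the untreated tumours. It gave 2896 calls among the 17936 genes (16.1%), 1329 higher under trametinib (7.41%) and 1567 lower (8.74%). Limma on the authors' normalized table gave 3398 calls with 72.1% of them higher, against 45.9% here, and put the median of all genes at 0.14 in place of 0.01. Many ERK readouts were lower under trametinib: 10 of 21 feedback inhibitors were lower and 1 was higher. Of 23 ERK-induced transcription factors 6 were lower and 3 were higher (Fosl2, Jun and Jund). Against the untreated tumours, the median of the feedback inhibitors was -0.18 with trametinib and 0.20 with erlotinib. Dusp5 averaged 11.9 ± 1.03 CPM under trametinib and 41.2 ± 6.56 CPM under erlotinib (SD, n = 3) (-1.79 ± 0.16, adjusted p = 7.12e-06), Dusp6 113 ± 9.67 CPM under trametinib and 184 ± 15.3 CPM under erlotinib (SD, n = 3) (-0.71 ± 0.09, adjusted p = 0.000151) and Egr1 18.2 ± 0.55 CPM under trametinib and 157 ± 72.5 CPM under erlotinib (SD, n = 3) (-3.11 ± 0.47, adjusted p = 0.00149). Each mean lay below that of erlotinib by more than the spread between tumours. Spry4 (-0.84 ± 0.10, adjusted p = 0.000125), Dusp4 (-1.39 ± 0.26, adjusted p = 0.00321) and Egr3 (-4.04 ± 0.46, adjusted p = 0.000125) were lower too, and Spry1 was again higher (0.91 ± 0.14, adjusted p = 0.000616).

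Fibroblast genes were higher under trametinib than under erlotinib for 21 of 29 members, with a median of 1.64. Myl9 averaged 173 ± 63.3 CPM under trametinib and 14.1 ± 4.85 CPM under erlotinib (SD, n = 3) (3.61 ± 0.37, adjusted p = 8.98e-05) and Tagln 85.8 ± 16.7 CPM under trametinib and 12.6 ± 1.97 CPM under erlotinib (SD, n = 3) (2.76 ± 0.22, adjusted p = 7.91e-06). Tenascin N, Tnn (3.30), and the fibronectin-domain gene Fndc1 (2.63) were among the largest differences, as were Saa3 (2.83) and the chemoattractant Rarres2 (2.69). Of 21 collagens 12 were higher, among them Col1a2 (1.62) and Col3a1 (0.99). Endothelial genes were lower for 20 of 25, with a median of -1.35, and macrophage genes for 12 of 25. The largest falls were in the iron exporter Slc40a1 (-4.08 ± 0.88, adjusted p = 0.0102), Mest (-3.98 ± 0.23, adjusted p = 1.12e-06), the NAD-consuming enzyme Cd38 (1.31 ± 0.496 CPM under trametinib and 16.2 ± 2.31 CPM under erlotinib (SD, n = 3), -3.64 ± 0.27, adjusted p = 2.38e-06), the neuronal nitric oxide synthase Nos1 (-3.34) and Fcrls (-3.26). Class I antigen presentation was higher for 13 of 20 genes, with H2-K1 at 0.75 ± 0.14, adjusted p = 0.00207 and the immunoproteasome subunit Psmb9 at 1.53 ± 0.31, adjusted p = 0.00562, and type I interferon response genes for 17 of 32. In the same comparison 26 of 28 T and NK cell genes lay above 0, with a median of 1.32, 2 of them called higher and 1 lower, and the class II median was 0.79. Against untreated tumours, the class I median was 0.20 with trametinib and -0.48 with erlotinib, and that of T and NK cell genes -1.10 and -2.12. The part of these cells in the class I difference was not tested. Hypoxia genes were higher for 19 of 27, with a median of 0.61. That number was 4 with only the 6 tumours compared, 8 without T3 or without E1, 9 without E2 and 11 without T2. The interferon number was 11 without T2, and the class I number 8 without E2. Single tumours ended the calls of Rarres2 without T1, T2, E1, E2 or E3 (adjusted p from 0.0529 to 0.11) and Nos1 without T1, T2, T3 or E1 (adjusted p from 0.0715 to 0.128).

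In all 4 treated groups set against the same 3 untreated tumours, the list medians of hypoxia genes were 0.94 with trametinib, 0.22 with erlotinib, -0.03 with chemotherapy and 0.72 with antibodies. Those of endothelial genes were -1.63, -0.27, -0.11 and -0.22, those of macrophage genes -0.75, 0.04, -0.08 and -0.19, and those of fibroblast genes 0.76, -0.44, -0.54 and -0.81. Since the untreated tumours are shared, these are values side by side and not separate evidence.

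Whether the response was particular to p53RB-426 was tested against p53RB-624 and p53RB-626, models whose names share the prefix, each with 3 trametinib and 3 untreated tumours. Of the 6 untreated p53RB-626 tumours the fit used the 3 whose library numbers lie next to the treated ones. The test was on the difference between the trametinib responses. Against p53RB-624, 334 of 19272 genes differed (1.73%), 129 with the more positive response in p53RB-426 (0.669%) and 205 with the more negative (1.06%). Mitosis genes differed for 11 of 30, all more positive in p53RB-426, where the list median was 0.10 against -0.31 in p53RB-624. Top2a responded with 0.20 in p53RB-426 and -0.62 in p53RB-624 (0.82 ± 0.11, adjusted p = 0.00225) and Mki67 with 0.11 in p53RB-426 and -0.75 in p53RB-624 (0.86 ± 0.18, adjusted p = 0.0243). Cyclin D2, Ccnd2, showed the largest positive difference (0.51 in p53RB-426 and -1.54 in p53RB-624, 2.05 ± 0.31, adjusted p = 0.00521), followed by Col11a1 (1.92), the actin-capping Tmod2 (1.86), Peg10 (1.81), Esr1 (1.54 ± 0.24, adjusted p = 0.00521) and Bche (1.53). Endothelial genes fell further in p53RB-426 for 10 of 25, with list medians of -1.64 and -0.42. Cldn5 responded with -2.76 in p53RB-426 and 0.01 in p53RB-624 (-2.77 ± 0.52, adjusted p = 0.0155) and Nos3 differed by -1.44 ± 0.23, adjusted p = 0.00632. Mast cell genes differed for 5 of 9, with the proteases Mcpt4, Tpsb2 and Cma1 higher with trametinib in p53RB-624 and not in p53RB-426 (-0.53 in p53RB-426 and 1.90 in p53RB-624 for Mcpt4). None of 21 feedback inhibitors differed by edgeR's test, and the hypoxia median differed by -0.02. Egr3 fell further in p53RB-426 (-3.81 in p53RB-426 and -0.89 in p53RB-624, -2.91 ± 0.48, adjusted p = 0.00696).

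Most of these numbers rested on few tumours. The total was 123 without U1, 156 without U3 and 191 without U2, and in limma it was 196. The mitosis number was 6 without U3, the endothelial number 4 without U3, 5 without U1 and 6 without T3, and the mast cell number between 0 and 2 without any 1 of the 6 p53RB-426 tumours. Single tumours ended the calls of Mki67 without U1 or U3 (adjusted p from 0.0596 to 0.0598), Peg10 without U1, U3, T1 or T3 (adjusted p from 0.0583 to 0.09), Bche without U1, U2, U3, T2 or T3 (adjusted p from 0.0714 to 0.108), Mcpt4 without U1, U2, U3, T1, T2 or T3 (adjusted p from 0.0567 to 0.0755), Tpsb2 without U2, U3 or T1 (adjusted p from 0.0527 to 0.0621) and Cma1 without U1, U2, U3, T1, T2 or T3 (adjusted p from 0.0534 to 0.088).

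Against p53RB-626, 1833 of 19272 genes differed (9.51%), 981 in the positive (5.09%) and 852 in the negative direction (4.42%). With library totals alone 33.2% of 2120 calls were positive and in limma 33.8% of 2033, against 53.5% here, and those scalings shifted the median of all genes to -0.14. Hypoxia genes differed for 20 of 27, all more positive in p53RB-426, where the median was 0.92 against -0.11. Car9 responded with 2.72 in p53RB-426 and -0.47 in p53RB-626 (3.19 ± 0.40, adjusted p = 0.000138) and Adm differed by 2.74 ± 0.64, adjusted p = 0.0162. Cholesterol synthesis genes differed for 13 of 24: the p53RB-426 median was -0.06 and that of p53RB-626 -0.61. T and NK cell genes were more negative in p53RB-426 for 11 of 28 and more positive for 3, the cytotoxic effectors Gzma, Gzmb and Prf1, with the call lost for Gzmb without U2 or T3 (adjusted p from 0.0643 to 0.0981). Cd8a responded with -1.77 in p53RB-426 and 2.32 in p53RB-626 (-4.09 ± 0.73, adjusted p = 0.00217). That number of 11 was 6 without U1 and 7 without U2. Of 15 neutrophil genes 8 were more positive in p53RB-426, with list medians of 0.08 in p53RB-426 and -0.95 in p53RB-626. Dusp6 fell in both models, by less in p53RB-426 (-0.62 in p53RB-426 and -1.69 in p53RB-626, 1.07 ± 0.14, adjusted p = 0.000158). Of 21 feedback inhibitors 2 were more positive in p53RB-426 and 1 more negative, with a median difference of 0.03. Of 23 ERK-induced transcription factors 5 were more positive in p53RB-426 and 1 more negative. Their medians were -0.08 in p53RB-426 and -0.48 in p53RB-626. Endothelial genes differed for 1 of 25, with a median difference of 0.05. Mitosis genes, which differed from p53RB-624, did so here for only 1 of 30, more negative in p53RB-426, with a median difference of -0.006.

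The largest differences from p53RB-626 were in the granzymes Gzme (5.77 ± 0.80, adjusted p = 0.000686), Gzmg, Gzmd and Gzmf, near-identical copies whose separate values are uncertain, and in Arg1, which responded with 0.82 in p53RB-426 and -4.93 in p53RB-626 (5.75 ± 0.70, adjusted p = 0.000255). Saa3 followed (4.35 ± 1.21, adjusted p = 0.0399), a call lost without U1, U2, U3, T1 or T2. In the negative direction these were Mest (-4.43 in p53RB-426 and 0.51 in p53RB-626, -4.93 ± 0.52, adjusted p = 8.46e-05), the arginine deiminase Padi4 (-4.22), the ganglioside enzyme St3gal5 (-4.10), Cx3cr1 (-3.01 in p53RB-426 and 0.63 in p53RB-626, -3.64 ± 0.44, adjusted p = 0.000185), Gprc5a (-3.40) and the tetraspanin Tspan12 (-3.16). The granzyme differences joined a rise in p53RB-426 to a fall in p53RB-626. Gzme responded with 2.04 in p53RB-426 and -3.74 in p53RB-626, and Gzmf with 2.94 and -2.70. Untreated means were 0.84 and 65.3 CPM for Gzme and 1.88 and 174 CPM for Gzmf, in the same order. In the 15-tumour fit of trametinib against untreated p53RB-426, none of 5 granzymes from Gzmc to Gzmg passed, with a median of 2.515.

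**Figure D4:**
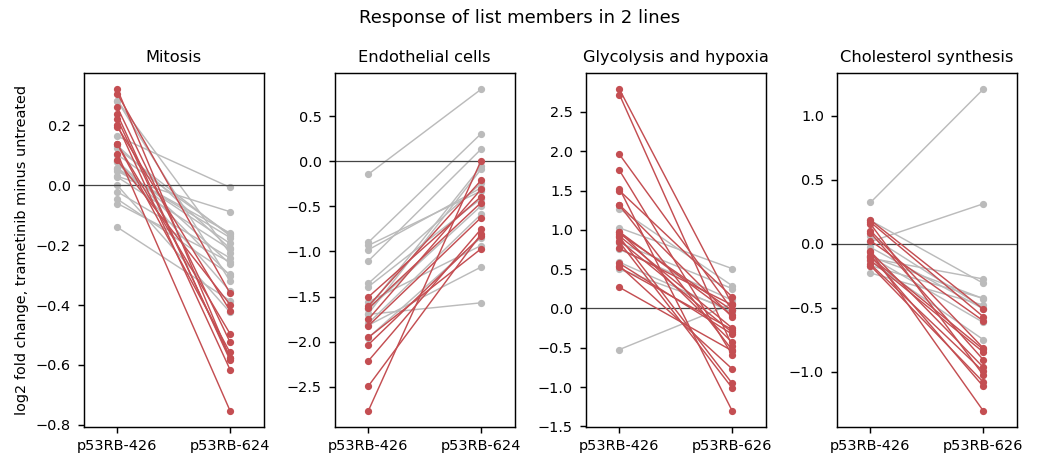
Each line joins the log2 fold change of 1 list member, trametinib minus untreated, in p53RB-426 and in p53RB-624 or p53RB-626, and red lines are members whose difference passed the test. Mitosis members lie lower in p53RB-624, endothelial members lie higher there, and hypoxia and cholesterol members lie lower in p53RB-626.

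Of the 24 models, 15 had at least 3 tumours with and 3 without trametinib, and the position of p53RB-426 among them is given as a description. Its endothelial median, -1.67 with single treated tumours between -2.16 and -1.37, was the second lowest after p53RB-626 at -1.70 with a prior count of 2 added before the log2 and the lowest, at -1.71, with a prior count of 0.5, and the next model, T11-APOBEC, stood at -0.92. Its macrophage median of -0.76 was the lowest, followed by p53RB-626 at -0.34, while the highest was 0.91 in model 2153. The p53RB-626 medians here used all 6 of its untreated tumours. In the test between models, which used 3 of them, the macrophage medians were -0.76 in p53RB-426 and -0.42 in p53RB-626. There 6 of 25 members were more positive in p53RB-426 and 5 more negative, against 5.09% and 4.42% of all genes. The hypoxia median of p53RB-426, 0.94, was the second highest after T11 at 1.00, with p53RB-624 next at 0.88. For hypoxia, p53RB-426, T11 and p53RB-624 lay closer together than the treated p53RB-426 tumours lay among themselves. ERK readouts fell less in p53RB-426 than in most models. Its feedback inhibitor median, -0.20, ranked 12 of 15 from the lowest, and T11 was lowest at -0.75. The ERK-induced transcription factors, at -0.11, also ranked 12, and KPB1-A was lowest at -0.66. The other ERK targets, at -0.25, ranked 8. The DNA replication median, 0.0001, was the highest of the 15, and that of mitosis, 0.10, ranked 14.

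**Figure D5:**
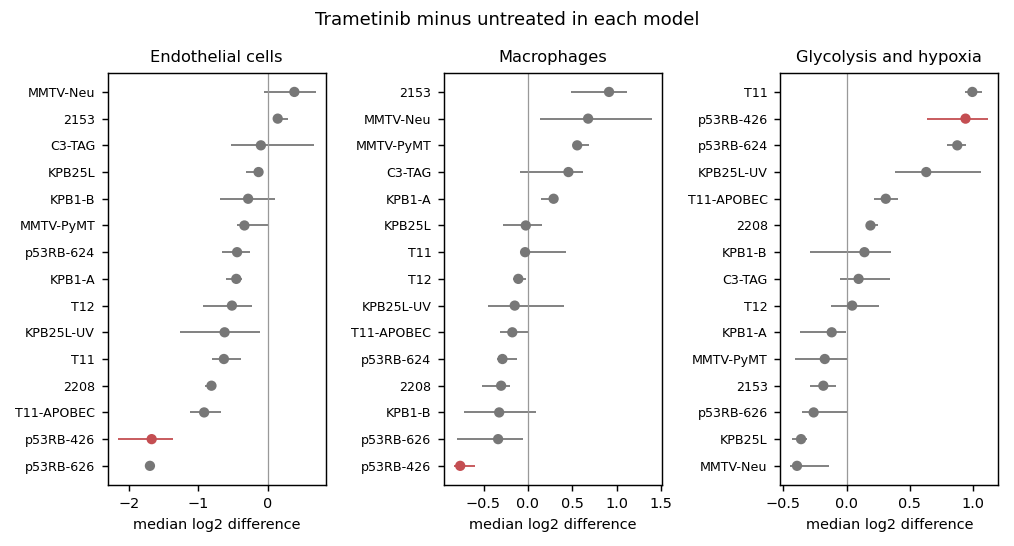
Points are the median log2 difference of 3 gene lists, trametinib minus untreated, in each of 15 models, and lines span the single trametinib tumours of that model. The red p53RB-426 points lie near the low end for endothelial cells (-1.67), at the low end for macrophages (-0.76) and near the high end for hypoxia (0.94).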

How the data were processed

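The 6 tumours are poly(A) RNA libraries made from homogenised frozen tumours, per the labels' protocols. The deposited table holds Salmon estimated counts for 55291 gene symbols, 53292 of them in GENCODE release M21, and the authors also deposited the same values as a normalized signal scaled to each library's upper quartile. STAR, SAMtools, Picard and Salmon with build mm10 are named in the submitters' processing notes, without versions. Strand handling is not given in the sources used here, so antisense partners cannot be told apart.

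Estimated counts, of which 8.35% were not whole, were rounded. EdgeR 4.0.16 (R 4.3.3) was used with filterByExpr, TMM scaling and a robust quasi-likelihood fit of 15 p53RB-426 tumours in 5 groups, or of 18 tumours of 3 models for differences between models. A gene passed when its p, adjusted over all tested genes after Benjamini and Hochberg, was under 0.05. The fit was checked on simulated counts with 200 changed genes. DESeq2 1.42.0 and limma 3.58.1 (pseudocount 1) were alternatives. List medians across models used log2 CPM with a prior count of 2. Promoters came from RefSeq (GRCm38.p6). No pair of p53RB-426 libraries shared more than 0.82% equal counts, so each was counted as 1 sample.

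Named genes were the 12 largest rises and falls among called genes whose groups did not overlap and whose mean log2 CPM reached 2 (6 for the other comparisons), the 2 lowest p values of each list, and a set of pathway and identity genes. Other list members are named as examples, and a few genes that these rules name are not reported here. Members and lists were chosen with earlier results of these data known, and lists were described by counts and medians without a set test.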

Additional observations from a re-analysis of the deposited data

Results flagged for a closer look

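The differences between models were flagged because the difference in trametinib response itself passed the test. Between p53RB-426 and p53RB-624, 334 genes differed. The named differences, p53RB-426 minus p53RB-624, were 2.05 for Ccnd2, 1.92 for Col11a1, 1.86 for Tmod2, 1.81 for Peg10, 1.54 for Esr1 and 1.53 for Bche. On the negative side they were -2.77 for Cldn5, -2.43 for Mcpt4, -2.41 for Mest, -2.38 for Tpsb2, -2.35 for Pf4, a chemokine of platelets and macrophages, and -2.15 for Cma1. Of these, Mest, Pf4 and Cldn5 differed with a fall in p53RB-426 (-4.43 in p53RB-426 and -2.02 in p53RB-624 for Mest, -1.91 in p53RB-426 and 0.44 in p53RB-624 for Pf4), while the mast cell proteases differed with a higher level under trametinib in p53RB-624. Leaving out single p53RB-426 tumours ended the calls of Mest without U1, U2, U3, T1 or T2 (adjusted p from 0.0572 to 0.0792) and Pf4 without U1, U2, U3, T1, T2 or T3 (adjusted p from 0.063 to 0.105).

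Between p53RB-426 and p53RB-626, 1833 genes differed. The named differences, p53RB-426 minus p53RB-626, were 5.77 for Gzme, 5.76 for Gzmg, 5.75 for Arg1, 5.71 for Gzmd, 5.64 for Gzmf and 4.35 for Saa3. On the negative side they were -4.93 for Mest, -4.22 for Padi4, -4.10 for St3gal5, -3.64 for Cx3cr1, -3.40 for Gprc5a and -3.16 for Tspan12. Padi4, St3gal5, Gprc5a and Tspan12 differed mainly through p53RB-626, where their log2 fold changes were 3.12, 4.07, 2.61 and 2.90. The granzymes rose in p53RB-426 and fell in p53RB-626 (2.04 and -3.74 for Gzme). The call of Gprc5a did not hold in some leave-out fits: Gprc5a without U1, U2, U3, T1 or T2 (adjusted p from 0.0505 to 0.0618).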

How the results depend on the processing

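No named gene's called change turned direction, and calls shared with the alternatives kept their sign in every setting run. The balance of calls did turn. Against erlotinib it was 1329 higher and 1567 lower, but 2450 and 948 in limma and 1465 and 1418 with upper quartile factors. Against p53RB-626 it was 981 positive and 852 negative, but 704 and 1416 with library totals, 687 and 1346 in limma, 617 and 696 with all 6 untreated p53RB-626 tumours, and 972 and 981 with a stricter filter. The DNA replication median of 0.02 took the other sign in 4 alternatives, down to -0.06, and that of ERK-induced transcription factors in 1. Trametinib against untreated gave 1908 calls, between 1235 and 1967 when 1 tumour was left out (the lowest without U1), and 502 with T1 as the only trametinib tumour, whose spread was then taken from the other groups. The remaining settings gave between 1625 (no low-count filter) and 2647 (DESeq2). Of 89 named genes called, 38 were called with the same sign in each of 15 alternatives. Trametinib against erlotinib gave 2896 calls, between 2003 and 2766 with 1 tumour left out, and 1571 when only the 6 tumours compared were fitted. The difference from p53RB-624 gave 334 calls, 1210 in DESeq2, 196 in limma and between 123 and 334 with 1 tumour left out. That from p53RB-626 gave 1833, between 1245 and 1645 with 1 tumour left out, and 1313 with all 6 untreated p53RB-626 tumours. The median difference of the B and plasma cell list in p53RB-426 was -0.78 and became -1.41 with a prior count of 0.5. Apart from the constructions named, the cause was not tested. No paired analysis was possible because the labels give no replicate numbers that groups share. With 3 tumours a group, genes near the filter, such as T cell genes at a few CPM, limit what could be detected.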

Other observations

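The gene groups below were put together after the values were seen, so they are descriptions of trametinib against untreated p53RB-426 tumours. Genes of the Notch pathway, which guides vessel sprouting and many cell fate choices, were lower for 8 of 16 tested members and higher for none, with a median of -0.90. The ligands Dll4 and Dll1 (-1.79 ± 0.22, adjusted p = 0.00014), the endothelial receptor Notch4 (-1.82 ± 0.17, adjusted p = 1.18e-05), the glycosyltransferase Mfng (-1.51 ± 0.13, adjusted p = 9.2e-06) and the targets Hey1 (-2.29 ± 0.22, adjusted p = 2.3e-05), Heyl and Nrarp (-1.26 ± 0.27, adjusted p = 0.00918) were lower. Notch1 (-0.76 ± 0.23, adjusted p = 0.0542) and Notch2 (0.11 ± 0.13, adjusted p = 0.69) did not pass. Genes of resident macrophages and microglia were lower for 8 of 13, with a median of -1.56, among them the purine receptors P2ry12 (-1.60 ± 0.23, adjusted p = 0.000496) and P2ry13 (-2.07 ± 0.22, adjusted p = 3.68e-05) and Gpr34 (-2.07 ± 0.18, adjusted p = 9.2e-06). Tmem119 (-0.00) and Olfml3 (-0.06) of the same group did not pass.

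Of 15 tested genes of nitric oxide and NF-kB signalling, 6 were higher: Nos2, the inhibitors Tnfaip3 (1.41 ± 0.20, adjusted p = 0.000434), Nfkbia (0.55 ± 0.11, adjusted p = 0.00427) and Nfkbiz (0.89 ± 0.17, adjusted p = 0.00397), Cebpd and Gadd45b. The metallothioneins Mt1 (1.3 ± 0.22, adjusted p = 0.0023) and Mt2 (2.29 ± 0.39, adjusted p = 0.00281) rose, as did the copper protein Cp (1.47 ± 0.28, adjusted p = 0.00542). Of 18 clock genes 5 were higher, among them Bhlhe40 (1.39 ± 0.34, adjusted p = 0.0203), which is also induced by hypoxia, and Per2 (0.73 ± 0.18, adjusted p = 0.0141), and the labels used here give no time of day. The call of Bhlhe40 did not hold without U1, U2 or T3, nor that of Per2 without T2 or U1. Among 18 imprinted genes Mest and Phlda2 (2.4, 3.41 and 4.48 CPM untreated and 0.367, 0.67 and 0.358 CPM treated, -2.88 ± 0.38, adjusted p = 0.00028) were lower and Grb10 was higher (0.48 ± 0.14, adjusted p = 0.0425), a call that was lost without U1, U2, T2 or T3 (adjusted p from 0.131 to 0.174), so the fall of Mest was not shared by most of the group, whose median was -0.20.

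Structural RNAs without poly(A) tails were highest in trametinib tumour T1. Rmrp stood at 0.473, 0.598 and 0.707 CPM untreated and 29.7, 3.04 and 0.842 CPM treated, Rpph1 at 0.131, 0.096 and 0.195 CPM untreated and 5.41, 0.627 and 0.26 CPM treated and Rn7sk at 2.23, 2.03 and 2.2 CPM untreated and 40.5, 8.02 and 3.08 CPM treated. The calls of these 3 genes were lost without T1 and equally without U1, U2 or U3, at adjusted p values from 0.133 to 0.208 for Rmrp, from 0.0669 to 0.103 for Rpph1 and from 0.133 to 0.179 for Rn7sk. Their part in the lower number of calls with T1 alone was not tested.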
